A study of Mus musculus with 9 samples.

Results

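The DNA replication and mitosis genes are 42 genes chosen for their place in the cell cycle: those that license origins, those that build and run the replication fork, those that supply deoxynucleotides, and those that drive mitosis and move chromosomes. A member was found as a row of the deposited array table whose annotated gene symbol was the gene's own, and 41 of the 42 were matched. Ccnb1 matched no row and was not analysed here. The table holds 35557 rows (transcript clusters), of which 23002 were counted in the tests. RNA came from 9 cultures of mouse embryonic stem (ES) cells, 3 of each genotype: Dgcr8 KO cells, which lack the RNA-binding partner of Drosha through deletion of exon 3 of Dgcr8, Dicer KO cells, which lack the enzyme that cuts pre-miRNA hairpins, and wild-type (WT) cells of the v6.5 line. No genotype carried a further allele or an added agent according to the labels, and how many clones each knockout line stands for is not given in the sources used here.

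Before a cell divides, the origin recognition complex (Orc genes) together with Cdc6 and Cdt1 loads the Mcm helicase on DNA in G1, and geminin (Gmnn) blocks Cdt1 afterwards. Cdc45 and the GINS complex then switch the helicase on, primase and the alpha, delta and epsilon polymerases copy the strands, and the clamp Pcna, loaded by replication factor C, holds the polymerases to DNA. Cyclin B with Cdk1, Plk1 and the Aurora kinases bring the cell into mitosis, where the spindle checkpoint (Bub1, Bub1b, Mad2l1, Ttk) holds back the anaphase-promoting complex and its activator Cdc20 until the chromosomes are attached. Mouse ES cells divide rapidly with a short G1 phase, and ES cells without Dgcr8 are known to proliferate more slowly. In bulk RNA, fewer cells in the phase that expresses a gene and less RNA per cell cannot be told apart.

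Values are log2 levels, 1 per array. The targeted genes were lowest in the mutant labelled for them: Dgcr8 measured 8.74 to 8.96 in Dgcr8 KO cells, 9.98 to 9.99 in Dicer KO cells and 9.76 to 9.82 in WT cells, and Dicer1 8.32 to 8.43 in Dicer KO cells, 10.39 to 10.47 in Dgcr8 KO cells and 10.18 to 10.23 in WT cells. The medians of the arrays lay between 6.486 and 6.564. WT replicate 1 and Dgcr8 KO replicate 2 stood farthest apart along the first component of the differences between replicates (40.8% of them), so counts are also given without both. Of the 12 ES cell markers, 7 were higher and 2 lower in Dgcr8 KO cells relative to WT. The same counts held in Dicer KO relative to WT cells. Of the called ES cell markers, Lin28a fell most and Nanog rose most in each mutant. Log2 ratios to WT over this list ran between -2.97 and 0.77 in Dgcr8 KO cells. In Dicer KO cells they ran between -3.43 and 1.10. Over all transcripts counted, 15.7% were higher and 17.3% lower in Dgcr8 KO cells relative to WT. In Dicer KO cells 17.8% were higher and 19.1% lower. The summed linear level of the ES cell markers was 41158 to 42001 in Dgcr8 KO, 44984 to 45328 in Dicer KO and 36450 to 37786 in WT cells. Of the 15 fibroblast and feeder markers measured, 2 were higher and 0 lower in Dgcr8 KO cells and 1 was higher and 1 lower in Dicer KO cells, both relative to WT. Over this list the summed linear level was 5590 to 5800 in Dgcr8 KO, 3910 to 3966 in Dicer KO and 2106 to 2181 in WT cells, and without Vim it was 1145 to 1313, 1117 to 1164 and 1167 to 1333 in the same order. Of the 10 primitive endoderm markers, 1 was higher and 1 lower in Dgcr8 KO cells, and 1 higher and 2 lower in Dicer KO cells, both relative to WT cells, and their summed level was 1277 to 1334, 1201 to 1212 and 1289 to 1351 in Dgcr8 KO, Dicer KO and WT cells. No marker of these lists was at 0, since the table holds positive values only. The part of these differences in the results on members was not tested.

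All 41 members measured were expressed at moderate to high levels in ES cells. Their mean log2 levels ran between 7.55 (Gmnn) and 11.67 (Pcna), from percentile 59 to percentile 96.8 of all transcripts. Replicates lay close together, with a median SD over the members of 0.0424 in Dgcr8 KO, 0.0351 in Dicer KO and 0.0662 in WT cells. Gmnn had 1 and the same deposited value on all 3 Dicer KO arrays, so its SD there was 0.

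In Dgcr8 KO relative to WT cells, 16 of the 41 members (39%) were lower and 6 (14.6%) were higher, where a call needed an adjusted p under 0.05 from limma over all 23002 transcripts. Over all transcripts, 17.3% were lower and 15.7% higher in this comparison. Bright transcripts were called more often than dim ones: of the 9435 transcripts at least as bright as the dimmest member, 30.8% were lower and 25.8% higher. Most members were much brighter than that dimmest one. Shares among transcripts matched to the members in brightness were not counted and may differ, here and in the comparisons below. The median log2 ratio of the members was -0.115, against -0.010 over all transcripts.

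In Dicer KO relative to WT cells, 16 of the 41 members (39%) were again lower and 6 (14.6%) higher, with 19.1% of all transcripts lower and 17.8% higher. Of the transcripts at least as bright as the dimmest member, 27.3% were lower and 31.3% higher. The median log2 ratio of the members was -0.097, against -0.057 over all transcripts. The count of lower members fell to 10 when Dicer KO replicate 3 was left out. Both comparisons share the 3 WT arrays, so their counts are set side by side and not compared.

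Between the mutants, 10 members (24.4%) were lower and 7 (17.1%) higher in Dgcr8 KO than in Dicer KO cells. Over all transcripts 13.4% were lower and 11.2% higher, and of those at least as bright as the dimmest member 25.1% were lower and 13.7% higher. The median log2 ratio of the members was 0.004, and that of all transcripts 0.035. Without Dicer KO replicate 3, 4 members were higher.

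Changes were small. The median size of the log2 ratio, whatever its sign, was 0.19 in each mutant relative to WT and 0.09 between the mutants. Only Pola1, in Dicer KO relative to WT cells, passed the threshold together with a change of at least 1.5-fold. Ratios beyond 0.3 in size were measured for 6 members in Dgcr8 KO relative to WT, for 9 in Dicer KO relative to WT and for 5 between the mutants. In Dgcr8 KO relative to WT cells, the arrays of both genotypes did not overlap for 32 members. In 12 every Dgcr8 KO array was above every WT array, and in 20 every one was below. Over all transcripts the arrays without overlap were not counted, so this number describes the members and does not set them apart.

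The split of higher and lower calls depended on how the arrays were scaled. In Dgcr8 KO relative to WT cells, 12 members were higher and 16 lower after quantile normalization was repeated. The counts were 13 and 13 after cyclic loess, and 4 and 19 after each array was centred on its median. Over all 23002 transcripts these settings gave 3798 higher and 4507 lower, 4306 and 3738, and 3097 and 4545, against 3615 and 3976 as deposited. The split over all transcripts thus also depended on the scaling. For Dicer KO relative to WT cells the same settings gave 6 members higher and 21 lower, 8 and 16, and 6 and 14. All transcripts gave 4066 and 4928, 4697 and 3890, and 4035 and 4185. For Dgcr8 KO relative to Dicer KO cells the settings gave 12 members higher and 9 lower, 9 and 10, and 4 and 10. Here all transcripts gave 2956 and 3011, 2715 and 3204, and 1874 and 3584. No member that was called as deposited was called the opposite way under any of them. The median shift of the ratios of all transcripts under these settings was up to 0.049 in size. In Dgcr8 KO relative to WT cells, these shifts were -0.022, 0.015 and -0.038 in the same order of settings. The median ratio of the members there was -0.115 as deposited and -0.035, -0.045 and -0.154 under the settings.

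**Figure D1:**
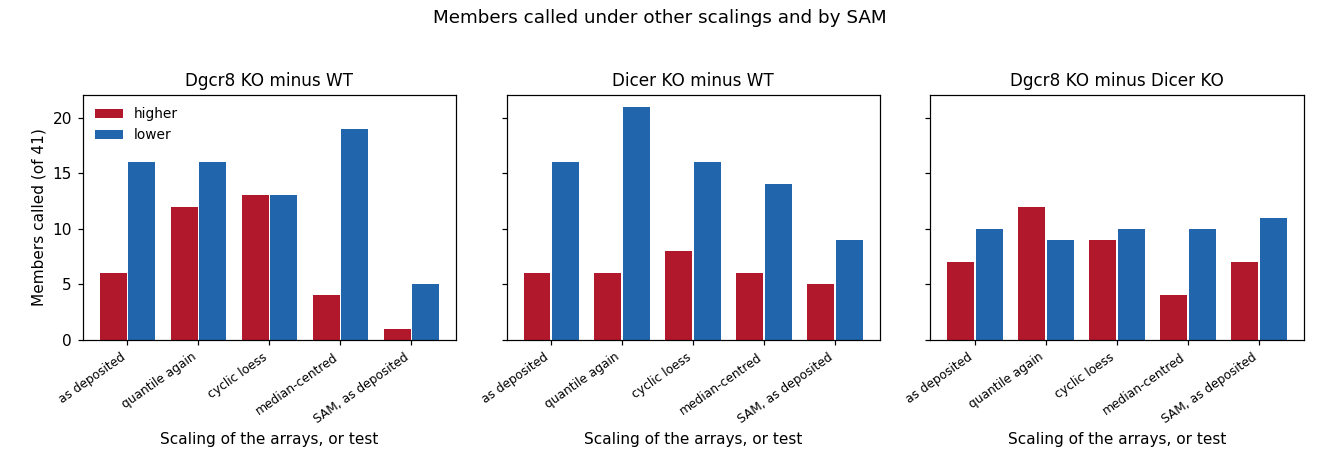
Number of the 41 members called higher (red) or lower (blue) in each comparison, with the values as deposited, after 3 other scalings of the arrays, and by SAM on the deposited values. In Dgcr8 KO relative to WT cells the count of higher members runs between 1 and 13 over these settings, and that of lower members between 5 and 19.

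**Figure D2:**
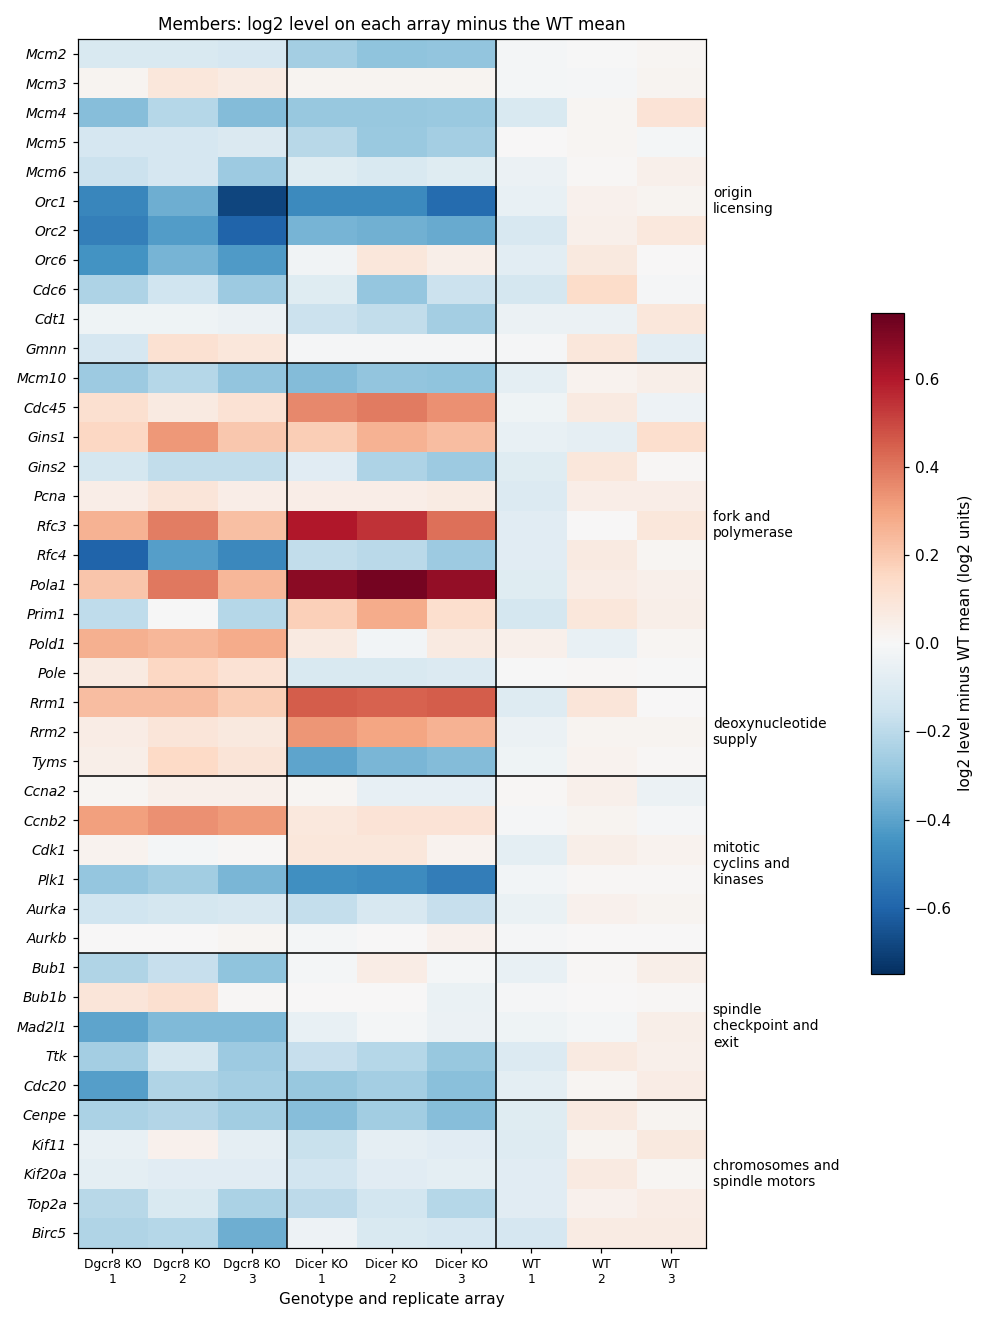
Log2 level of each member (rows, grouped by role) on each of the 9 arrays (columns, by genotype and replicate) minus that member's mean over the 3 WT arrays; red is above and blue below the WT mean. Orc1 and Orc2 are below the WT mean on all 6 mutant arrays, and Pola1 and Rfc3 are above it on all 6.

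Genes of the cell cycle are known to share promoter elements: E2F sites in many genes of G1 and S phase, and the CHR element, often next to CCAAT boxes, in genes of G2 and mitosis. The windows searched ran from 250 bases before to 50 bases after each annotated start, in RefSeq of GRCm38.p6, and were found for 34 members in 35 windows, since Orc2 has a pair of starts. Aurkb, Ccna2, Gins1, Gins2, Gmnn, Kif20a, Mcm4 and Pole were not searched here. The E2F-type motif was TTTCCCGC or TTTGGCGC or TTTCGCGC or TTTGCCGC, the CHR motif was TTTGAA and the CCAAT box was CCAAT, each sought on both strands, with overlapping matches counted apart. An E2F-type motif was present in 10 of the 35 windows (28.6%), against 2.26% of all 32851 promoter windows. The CHR motif was present in 11 (31.4%), against 17.9% of all windows, and the CCAAT box in 28 (80%), against 37.4%.

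The motifs were spread unevenly over the roles of the genes. Of the 21 windows of replication genes, 9 (42.9%) held an E2F-type motif and 2 (9.52%) the CHR motif, those of Mcm2 and Cdc45. Of the 14 windows of mitosis genes, 1 (7.14%), that of Cdk1, held an E2F-type motif and 9 (64.3%) the CHR motif. All 11 member windows with the CHR motif also held a CCAAT box, as did 2284 of all 5878 windows with that motif. Both elements were thus present in 31.4% of the 35 member windows, against 6.95% of all windows. Carriers of 1 motif did not move one way. Of the 10 members with an E2F-type motif, 3 were higher and 2 lower in Dgcr8 KO cells relative to WT, whereas 2 rose and 3 fell in Dicer KO cells relative to WT. Of the 23 measured members whose windows lacked it, 2 were higher and 13 lower in Dgcr8 KO cells relative to WT. In Dicer KO cells relative to WT, 3 of these 23 were higher and 11 lower. Of the 11 members with the CHR motif, 1 was higher and 5 lower in Dgcr8 KO cells relative to WT, and 1 was higher and 6 lower in Dicer KO cells relative to WT. Of the 22 measured members whose windows lacked it, 4 were higher and 10 lower in Dgcr8 KO cells relative to WT. In Dicer KO cells relative to WT, 4 of these 22 were higher and 8 lower. These matches are a description of the letters in the windows, with no test.

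**Figure D3:**
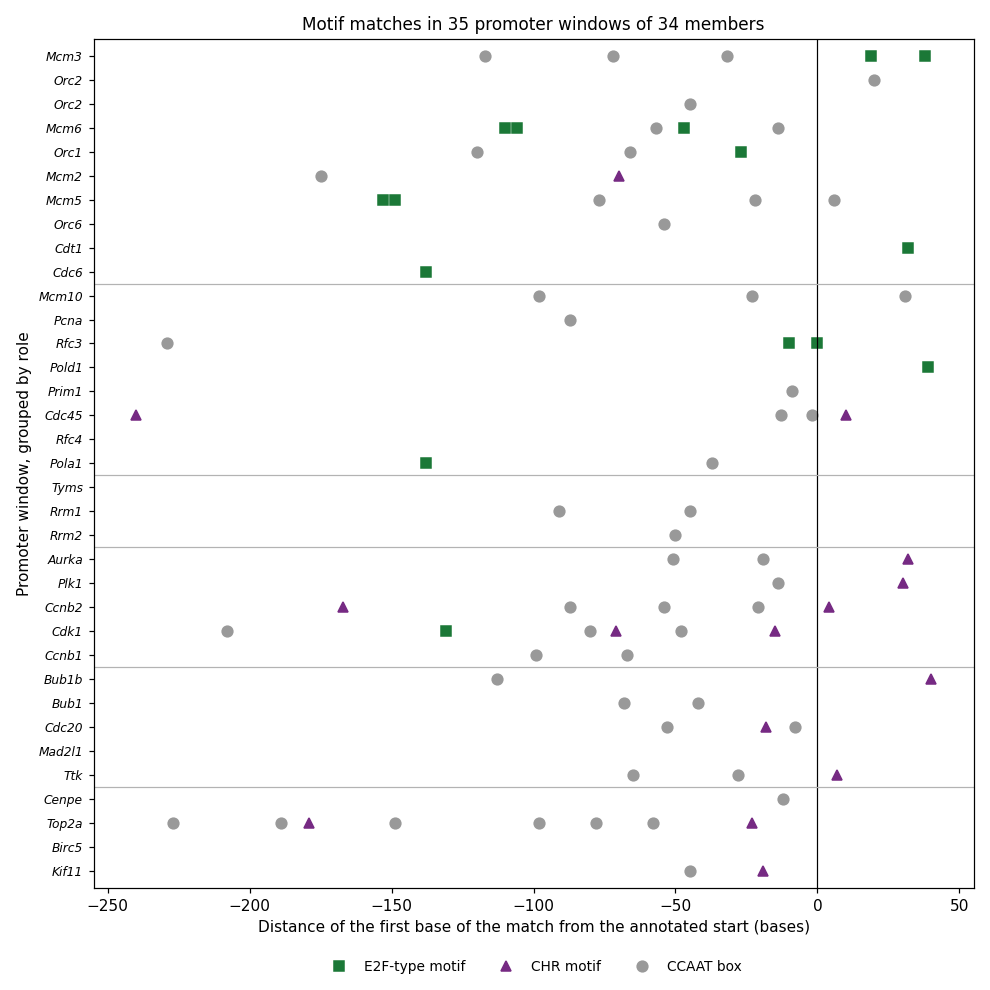
Position of each motif match in the 35 promoter windows of 34 members (rows, grouped by role), as the distance in bases of its first base from the annotated start (line at 0). Green squares, the E2F-type motif, lie mostly in the licensing and fork genes, and purple triangles, the CHR motif, mostly in the mitosis genes; grey circles are CCAAT boxes.

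With the values as deposited, every origin licensing gene that was called against WT was lower. Of the 11 members of this group, 5 were lower in Dgcr8 KO than in WT cells (Mcm4, Mcm6, Orc1, Orc2 and Orc6) and none higher, and 6 fell in Dicer KO relative to WT cells (Mcm2, Mcm4, Mcm5, Orc1, Orc2 and Cdt1), again with none higher. Over the group, the median log2 ratio was -0.188 in Dgcr8 KO cells and -0.20 in Dicer KO, both relative to WT cells. Under other scalings, Mcm3 was called higher in Dgcr8 KO cells after repeated quantile normalization (log2 ratio 0.14) and after cyclic loess (0.12), and with the values as deposited its ratio was 0.05.

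Orc1, the largest subunit of the origin recognition complex, had log2 levels of 8.20, 8.32 and 8.0 in Dgcr8 KO cells and of 8.21, 8.21 and 8.11 in Dicer KO cells, against 8.63, 8.72 and 8.71 in WT cells. All 6 mutant arrays lay below the lowest WT array, and the mutants overlapped with each other. The log2 ratio was -0.52 ± 0.0788 (SE, n = 3 per genotype; adjusted p = 0.000707) in Dgcr8 KO cells and -0.51 ± 0.0788 (adjusted p = 0.000668) in Dicer KO, each relative to WT, a level 1.43-fold and 1.42-fold lower than in WT cells. Between the mutants the ratio was -0.01 ± 0.0788 (adjusted p = 0.972). Its promoter window, chr4:108579204-108579503 on the plus strand of GRCm38.p6, is shown because Orc1 fell most among the licensing genes and carries both kinds of element of this group; the E2F-type motif (on the opposite strand) and the 2 CCAAT boxes are in capitals.
Orc1: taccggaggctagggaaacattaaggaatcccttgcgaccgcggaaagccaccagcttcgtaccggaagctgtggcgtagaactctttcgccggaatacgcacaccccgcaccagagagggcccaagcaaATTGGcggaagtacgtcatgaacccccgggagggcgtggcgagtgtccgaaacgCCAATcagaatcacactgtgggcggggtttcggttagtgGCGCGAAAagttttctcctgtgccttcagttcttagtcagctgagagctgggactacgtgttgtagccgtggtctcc

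Of the other Orc genes among the members, Orc6 was called between the mutants and Orc2, with all arrays included, was not. Orc3, Orc4 and Orc5 were counted with the other genes of replication below. Orc2 averaged 10.09 ± 0.0917 in Dgcr8 KO cells and 10.24 ± 0.0151 in Dicer KO cells, against 10.60 ± 0.106 in WT cells (mean log2 level ± SD, n = 3 each), with all mutant arrays below all WT arrays. It was lower than in WT in both, by log2 ratios of -0.51 (adjusted p = 0.000255) in Dgcr8 KO cells and -0.36 (adjusted p = 0.00194) in Dicer KO cells, and its ratio in Dgcr8 KO relative to Dicer KO cells was -0.15 (adjusted p = 0.141), or -0.19 (adjusted p = 0.0171) in the absence of both WT replicate 1 and Dgcr8 KO replicate 2. Orc6 had log2 levels of 9.69, 9.79 and 9.71 in Dgcr8 KO cells, against 10.11, 10.22 and 10.18 in Dicer KO cells and 10.06, 10.21 and 10.14 in WT cells. The Dgcr8 KO arrays lay below all others, whereas Dicer KO and WT arrays overlapped. Its log2 ratio was -0.41 ± 0.0568 (adjusted p = 0.000405) in Dgcr8 KO relative to WT, -0.44 ± 0.0568 (adjusted p = 0.000472) in Dgcr8 KO cells relative to Dicer KO cells, and 0.03 ± 0.0568 (adjusted p = 0.699) in Dicer KO relative to WT.

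The Mcm helicase subunits among the members moved less, and Mcm7 was counted with the other genes of replication. Mcm2 had log2 levels of 11.42, 11.42 and 11.41 in Dgcr8 KO cells and 11.28, 11.23 and 11.24 in Dicer KO cells, against 11.52, 11.53 and 11.55 in WT cells. The 3 genotypes did not overlap. It was lower in Dicer KO than in WT cells (log2 ratio -0.28 ± 0.041, adjusted p = 0.000443), and its ratio in Dgcr8 KO relative to WT was -0.12 ± 0.041 (adjusted p = 0.0586). The call between the mutants (log2 ratio 0.17, adjusted p = 0.0155) was lost without Dicer KO replicate 2 or 3 (adjusted p = 0.0539 to 0.0608) and after centring each array on its median (adjusted p = 0.105). Mcm4 was lower in both mutants by a log2 ratio of -0.29 (adjusted p = 0.00587 in Dgcr8 KO cells and 0.00549 in Dicer KO), and Mcm5 was lower in Dicer KO cells by -0.25 (adjusted p = 0.00139), with -0.12 (adjusted p = 0.0584) in Dgcr8 KO cells, all relative to WT.

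The remaining licensing calls were weak. Mcm6 showed a log2 ratio of -0.19 in Dgcr8 KO relative to WT cells (adjusted p = 0.0178), and the call was lost without WT replicate 2 or 3 or Dgcr8 KO replicate 3 (adjusted p = 0.0501 to 0.0622) and under 2 of the other scalings. Cdt1, the loading factor that geminin inhibits, had a log2 ratio of -0.20 in Dicer KO relative to WT cells (adjusted p = 0.0132), lost without Dicer KO replicate 3 (adjusted p = 0.0541). Its ratio between the mutants was 0.16 (adjusted p = 0.0465), lost without any 1 of 7 arrays, that is all but WT replicates 1 and 3 (adjusted p = 0.0539 to 0.146). Cdc6 (log2 ratios to WT of -0.22 in Dgcr8 KO cells and -0.18 in Dicer KO cells) and Gmnn (0.02 and -0.01) were called in no comparison as deposited, but Cdc6 was called lower in both mutants after repeated quantile normalization (-0.24 and -0.27).

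Fork and polymerase genes moved in both directions. Of 11 members, 4 were higher (Gins1, Rfc3, Pola1 and Pold1) and 2 lower (Mcm10 and Rfc4) in Dgcr8 KO than in WT cells, and 4 were higher (Cdc45, Gins1, Rfc3 and Pola1) and 3 lower (Mcm10, Gins2 and Rfc4) in Dicer KO than in WT cells. Over the group, the median log2 ratio was 0.103 in Dgcr8 KO cells and 0.057 in Dicer KO, both relative to WT. Between the mutants, 2 were higher (Pold1 and Pole) and 5 lower (Cdc45, Rfc3, Rfc4, Pola1 and Prim1) in Dgcr8 KO cells.

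Pola1, the catalytic subunit of the polymerase that starts each strand with primase, showed the widest change of any member. Its log2 levels were 9.94, 10.13 and 9.98 in Dgcr8 KO cells and 10.41, 10.45 and 10.39 in Dicer KO cells, against 9.64, 9.79 and 9.77 in WT cells. The 3 genotypes did not overlap, with Dicer KO highest and WT lowest. The log2 ratio was 0.68 ± 0.0645 (adjusted p = 2.68e-05, 1.61-fold) in Dicer KO relative to WT, 0.28 ± 0.0645 (adjusted p = 0.00704, 1.22-fold) in Dgcr8 KO relative to WT, and -0.40 ± 0.0645 (adjusted p = 0.0018) in Dgcr8 KO relative to Dicer KO cells. Pola1 lies on chromosome X, where the median ratio of 754 transcripts was 0.013 in Dicer KO and -0.023 in Dgcr8 KO relative to WT. Its partner Prim1, the catalytic subunit of primase, showed a log2 ratio of -0.33 in Dgcr8 KO relative to Dicer KO cells (adjusted p = 0.0146), lost without Dgcr8 KO replicate 1 or 3 or Dicer KO replicate 2 (adjusted p = 0.0569 to 0.0604), and its ratios to WT were -0.14 in Dgcr8 KO cells and 0.19 in Dicer KO cells.

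Rfc3 and Rfc4, the clamp loader subunits among the members, moved apart. Rfc3 had log2 levels of 9.31, 9.43 and 9.27 in Dgcr8 KO cells and 9.65, 9.59 and 9.46 in Dicer KO cells, against 8.96, 9.05 and 9.13 in WT cells. Rfc4 had log2 levels of 9.96, 10.15 and 10.08 in Dgcr8 KO cells and 10.38, 10.36 and 10.29 in Dicer KO cells, against 10.48, 10.63 and 10.58 in WT cells. For both genes the 3 genotypes did not overlap, and WT cells were lowest in Rfc3 and highest in Rfc4. Rfc3 was higher in Dgcr8 KO than in WT by a log2 ratio of 0.29 ± 0.0709 (adjusted p = 0.0108), a call lost when WT replicate 1 and Dgcr8 KO replicate 2 were left out together (adjusted p = 0.0737), and in Dicer KO than in WT by 0.51 ± 0.0709 (adjusted p = 0.000332). Rfc4 was lower in Dgcr8 KO than in WT by -0.50 ± 0.0636 (adjusted p = 0.00022). In Dicer KO relative to WT its ratio was -0.22 ± 0.0636 (adjusted p = 0.0225), a call lost without WT replicate 2 or 3 or Dicer KO replicate 2 or 3 (adjusted p = 0.0534 to 0.0785). Between the mutants Rfc4 was lower in Dgcr8 KO cells by -0.28 (adjusted p = 0.0107), while the call of Rfc3 (log2 ratio -0.22, adjusted p = 0.0471) was lost without any 1 of 6 arrays, all but WT replicate 1, Dgcr8 KO replicate 2 and Dicer KO replicate 3 (adjusted p = 0.0501 to 0.16), and after repeated quantile normalization (adjusted p = 0.0702).

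The promoter windows of Pola1 (chrX:93632106-93632405, minus strand, GRCm38.p6) and Rfc3 (chr5:151651159-151651458, minus strand) are shown because these fork genes rose in both mutants while Orc1, which also carries an E2F-type motif, fell. E2F-type motifs and CCAAT boxes are in capitals, 1 of each in Pola1, and in Rfc3 2 E2F-type motifs at the annotated start and 1 CCAAT box far upstream. Rfc4, which fell, held none of the 3 motifs in its window.
Pola1: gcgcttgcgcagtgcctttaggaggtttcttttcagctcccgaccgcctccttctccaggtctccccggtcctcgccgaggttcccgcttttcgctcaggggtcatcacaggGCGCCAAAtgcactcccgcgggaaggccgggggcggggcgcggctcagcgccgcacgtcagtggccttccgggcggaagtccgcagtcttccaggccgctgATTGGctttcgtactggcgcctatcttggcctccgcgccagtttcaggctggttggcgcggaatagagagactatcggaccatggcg
Rfc3: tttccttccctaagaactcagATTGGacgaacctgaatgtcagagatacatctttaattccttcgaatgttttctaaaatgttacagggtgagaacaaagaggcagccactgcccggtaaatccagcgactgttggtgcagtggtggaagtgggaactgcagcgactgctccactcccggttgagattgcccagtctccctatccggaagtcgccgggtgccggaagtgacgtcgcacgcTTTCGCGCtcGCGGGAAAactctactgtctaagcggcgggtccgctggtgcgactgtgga

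Among the genes that activate the helicase, Mcm10 fell and Cdc45 rose. Mcm10 had log2 levels of 9.84, 9.90 and 9.82 in Dgcr8 KO cells and 9.79, 9.82 and 9.81 in Dicer KO cells, against 10.04, 10.14 and 10.16 in WT cells. It was lower in both mutants than in WT, by -0.26 ± 0.0494 in Dgcr8 KO (adjusted p = 0.0025) and -0.31 ± 0.0494 in Dicer KO cells (adjusted p = 0.000861). Cdc45 was higher in Dicer KO than in WT cells by a log2 ratio of 0.36 (adjusted p = 0.000246), and its ratio in Dgcr8 KO relative to WT was 0.10 (adjusted p = 0.142). Between the mutants it was lower in Dgcr8 KO cells by -0.26 (adjusted p = 0.00376). Of the GINS subunits, Gins1 had a log2 ratio of 0.23 in both mutants relative to WT (adjusted p = 0.0261 in Dgcr8 KO cells and 0.0258 in Dicer KO). The first call was lost without WT replicate 1 or 2 or Dgcr8 KO replicate 2 or 3 (adjusted p = 0.0521 to 0.0912), after centring each array on its median (adjusted p = 0.078), and in the absence of both WT replicate 1 and Dgcr8 KO replicate 2 (adjusted p = 0.144). The second was lost without WT replicate 1 or 2 or Dicer KO replicate 2 or 3 (adjusted p = 0.0673 to 0.0867), after repeated quantile normalization (adjusted p = 0.0883), and in the absence of that same pair of arrays (adjusted p = 0.0518). Gins2 had a ratio of -0.19 in Dicer KO relative to WT (adjusted p = 0.0442) with overlapping arrays, lost without any 1 of 7 arrays, all but WT replicate 1 and Dicer KO replicate 1 (adjusted p = 0.0578 to 0.145).

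The catalytic subunits of the delta and epsilon polymerases separated the mutants. Pole had log2 levels of 10.33, 10.42 and 10.37 in Dgcr8 KO cells, against 10.15, 10.15 and 10.16 in Dicer KO cells and 10.26, 10.27 and 10.26 in WT cells. WT arrays lay between those of the mutants, and no genotypes overlapped. Pole was higher in Dgcr8 KO than in Dicer KO cells by a log2 ratio of 0.22 ± 0.0423 (adjusted p = 0.00429), with 0.11 in Dgcr8 KO (adjusted p = 0.0704) and -0.11 in Dicer KO (adjusted p = 0.0714) relative to WT. Pold1 was higher in Dgcr8 KO cells by 0.26 relative to WT (adjusted p = 0.00199) and by 0.22 relative to Dicer KO cells (adjusted p = 0.0076), and its ratio in Dicer KO relative to WT was 0.04 (adjusted p = 0.577). Both scalings that gave more higher members called Pole higher in Dgcr8 KO than in WT cells (0.17 after quantile normalization and 0.18 after cyclic loess) and Pcna likewise (0.13 and 0.14). As deposited, Pcna was called in no comparison (log2 ratio to WT 0.06 in each mutant). The table has another cluster for Pcna with nearly the same value on every array, so signal from a near-identical copy of the gene cannot be told apart.

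Of the 3 genes that supply deoxynucleotides, the subunits of ribonucleotide reductase, Rrm1 and Rrm2, and thymidylate synthase, Tyms, 1 was higher in Dgcr8 KO than in WT cells and none lower, whereas 2 rose and 1 fell in Dicer KO cells relative to WT. Rrm1, the large subunit, had log2 levels of 11.36, 11.36 and 11.31 in Dgcr8 KO cells and 11.58, 11.57 and 11.58 in Dicer KO cells, against 11.03, 11.22 and 11.13 in WT cells. No genotypes overlapped and Dicer KO cells were highest. The log2 ratio was 0.45 ± 0.054 (adjusted p = 0.000137, 1.36-fold) in Dicer KO relative to WT and -0.24 ± 0.054 (adjusted p = 0.0115) in Dgcr8 KO relative to Dicer KO. In Dgcr8 KO relative to WT it was 0.21 ± 0.054 (adjusted p = 0.0133), a call lost after centring each array on its median (adjusted p = 0.06). Rrm2 was higher in Dicer KO than in WT cells by 0.30 (adjusted p = 0.000579), and its ratio in Dgcr8 KO relative to WT was 0.07 (adjusted p = 0.268), or 0.14 after quantile normalization or cyclic loess (adjusted p = 0.0164 each).

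Tyms went the other way in Dicer KO cells. Its log2 levels were 9.71, 9.81 and 9.76 in Dgcr8 KO cells and 9.27, 9.32 and 9.34 in Dicer KO cells, against 9.63, 9.69 and 9.67 in WT cells. The Dicer KO arrays lay below all others. The log2 ratio was -0.35 ± 0.0471 (adjusted p = 0.00028) in Dicer KO relative to WT and 0.45 ± 0.0471 (adjusted p = 0.000135, 1.36-fold) in Dgcr8 KO relative to Dicer KO, the largest positive ratio of any member between the mutants. In Dgcr8 KO relative to WT it was 0.10 ± 0.0471 (adjusted p = 0.158), called higher after repeated quantile normalization (adjusted p = 0.0442) and cyclic loess (adjusted p = 0.0213).

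**Figure D4:**
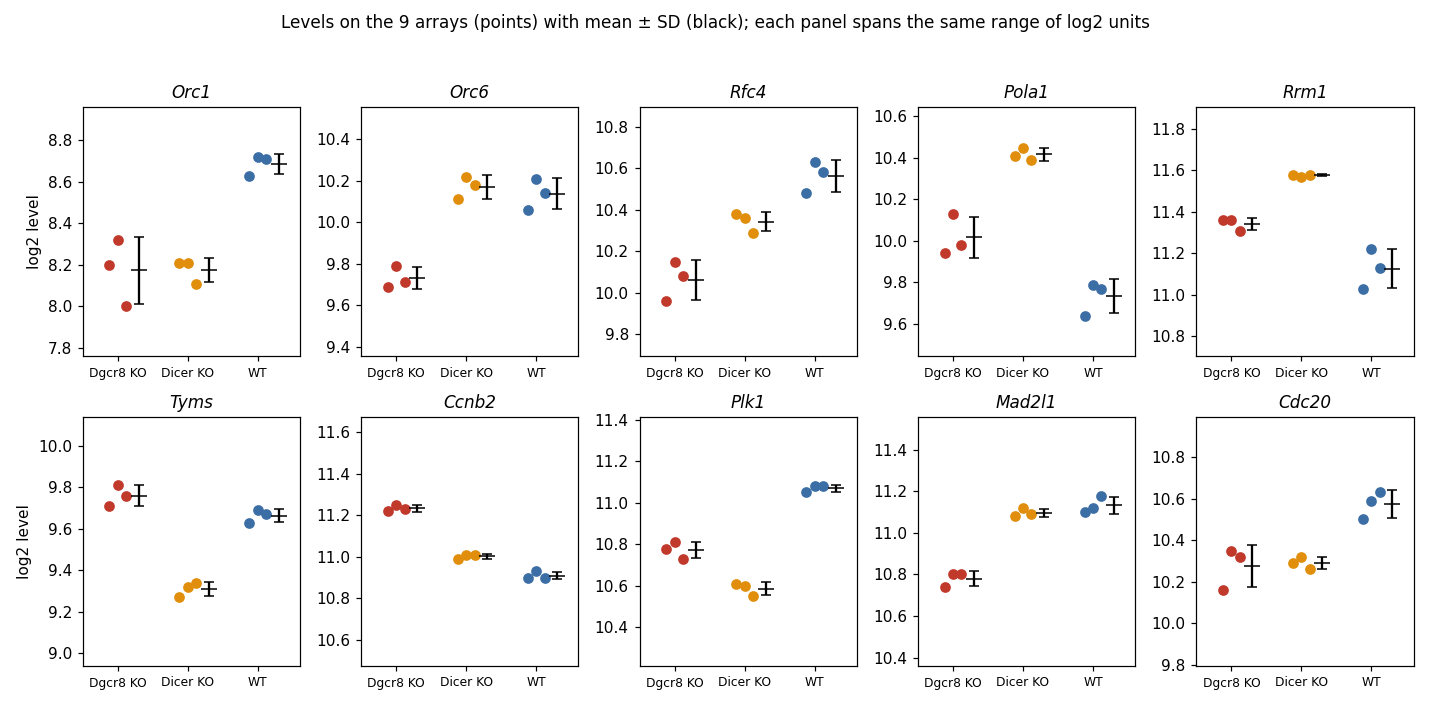
Log2 levels of 10 members (panels) on each array of Dgcr8 KO, Dicer KO and WT cells (points), with the mean and SD of the 3 arrays in black. Orc6 and Mad2l1 are low in Dgcr8 KO cells alone, Tyms is low in Dicer KO cells alone, and Orc1 and Cdc20 are low in both mutants.

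Of the 6 mitotic cyclins and kinases measured, 1 was higher (Ccnb2) and 2 lower (Plk1 and Aurka) in Dgcr8 KO than in WT cells, and 2 were lower (Plk1 and Aurka) and none higher in Dicer KO than in WT cells. Over the group, the median log2 ratio was 0.008 in Dgcr8 KO cells and -0.015 in Dicer KO cells relative to WT. Cdk1, the kinase of mitotic entry, its S and G2 phase partner Ccna2, and Aurkb were called in no comparison, with log2 ratios to WT of 0.01, 0.03 and 0.01 in Dgcr8 KO cells and of 0.06, -0.04 and 0.01 in Dicer KO cells.

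Ccnb2, a B-type cyclin that activates Cdk1, had log2 levels of 11.22, 11.25 and 11.23 in Dgcr8 KO cells and 10.99, 11.01 and 11.01 in Dicer KO cells, against 10.90, 10.93 and 10.90 in WT cells. No genotypes overlapped and Dgcr8 KO cells were highest. It was higher in Dgcr8 KO than in WT by a log2 ratio of 0.33 ± 0.0404 (adjusted p = 0.000183, 1.25-fold) and than in Dicer KO cells by 0.23 ± 0.0404 (adjusted p = 0.00299). In Dicer KO relative to WT cells it was 0.10 ± 0.0404 (adjusted p = 0.0853), called higher after cyclic loess (adjusted p = 0.0392).

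Plk1, the Polo kinase that acts from mitotic entry to cytokinesis, had log2 levels of 10.78, 10.81 and 10.73 in Dgcr8 KO cells and 10.61, 10.60 and 10.55 in Dicer KO cells, against 11.05, 11.08 and 11.08 in WT cells. No genotypes overlapped and Dicer KO cells were lowest. It was lower than in WT by -0.30 ± 0.0447 in Dgcr8 KO (adjusted p = 0.000633) and by -0.48 ± 0.0447 in Dicer KO cells (adjusted p = 2.31e-05), 1.23-fold and 1.40-fold lower. The call between the mutants (log2 ratio 0.19, adjusted p = 0.0142) was lost without Dicer KO replicate 3 (adjusted p = 0.0567) and after centring each array on its median (adjusted p = 0.0876). Aurka, the Aurora kinase of the spindle poles, had log2 ratios to WT of -0.14 in Dgcr8 KO (adjusted p = 0.0394) and -0.16 in Dicer KO cells (adjusted p = 0.018). The first call was lost without any 1 of 8 arrays, all but WT replicate 1 (adjusted p = 0.0537 to 0.111), and under 2 of the other scalings, and the second without WT replicate 2 or 3 or Dicer KO replicate 1 or 3 (adjusted p = 0.0546 to 0.0656).

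The promoter windows of Ccnb2 (chr9:70421505-70421804, minus strand, GRCm38.p6) and Plk1 (chr7:122159185-122159484, plus strand) are shown because this pair carries the same kinds of element and moved in opposite directions in Dgcr8 KO relative to WT cells. The CHR motif and CCAAT boxes are in capitals, with 2 CHR motifs and 3 CCAAT boxes in Ccnb2 and 1 of each in Plk1.
Ccnb2: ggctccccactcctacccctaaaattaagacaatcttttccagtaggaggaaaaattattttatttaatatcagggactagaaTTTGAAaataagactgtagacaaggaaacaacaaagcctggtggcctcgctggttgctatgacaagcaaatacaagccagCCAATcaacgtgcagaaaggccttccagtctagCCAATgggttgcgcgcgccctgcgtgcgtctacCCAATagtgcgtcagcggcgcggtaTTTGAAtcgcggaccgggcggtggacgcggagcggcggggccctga
Plk1: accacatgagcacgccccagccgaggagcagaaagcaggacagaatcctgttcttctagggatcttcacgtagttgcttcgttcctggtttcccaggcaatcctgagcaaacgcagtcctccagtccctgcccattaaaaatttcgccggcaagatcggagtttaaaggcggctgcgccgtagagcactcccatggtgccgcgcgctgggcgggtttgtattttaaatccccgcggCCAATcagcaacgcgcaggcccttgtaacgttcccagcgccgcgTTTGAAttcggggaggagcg

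Genes of the spindle checkpoint and mitotic exit, apart from Bub1b, were called lower in Dgcr8 KO than in WT cells as deposited. Of 5 members, 4 were lower (Bub1, Mad2l1, Ttk and Cdc20) and none higher in Dgcr8 KO than in WT cells, whereas 2 were lower (Ttk and Cdc20) in Dicer KO than in WT cells. By SAM, 1 of the 5 was lower in Dgcr8 KO than in WT cells (Mad2l1). Of all transcripts at least as bright as the dimmest member, 30.8% were lower in that comparison. The median log2 ratio was -0.236 in Dgcr8 KO cells and -0.034 in Dicer KO cells, both relative to WT. Bub1b, a checkpoint protein that binds and inhibits Cdc20, showed a log2 ratio of 0.07 in Dgcr8 KO relative to WT cells and was called higher there after repeated quantile normalization (0.16) and cyclic loess (0.14), the same settings under which it was called higher than in Dicer KO cells.

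Mad2l1, which captures Cdc20 at unattached chromosomes, had log2 levels of 10.74, 10.80 and 10.80 in Dgcr8 KO cells, against 11.08, 11.12 and 11.09 in Dicer KO cells and 11.10, 11.12 and 11.18 in WT cells. The Dgcr8 KO arrays lay below all others, and Dicer KO and WT arrays overlapped. It was lower in Dgcr8 KO cells by -0.35 ± 0.0446 relative to WT (adjusted p = 0.000228, 1.27-fold) and by -0.32 ± 0.0446 relative to Dicer KO (adjusted p = 0.000808), and its ratio in Dicer KO relative to WT was -0.03 (adjusted p = 0.594). Bub1, the kinase that recruits checkpoint proteins to kinetochores, had log2 levels of 10.54, 10.59 and 10.46 in Dgcr8 KO cells, against 10.75, 10.82 and 10.75 in Dicer KO and 10.71, 10.77 and 10.81 in WT cells. It was lower in Dgcr8 KO cells by -0.24 relative to WT (adjusted p = 0.00621) and by -0.25 relative to Dicer KO cells (adjusted p = 0.00777).

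Cdc20, which activates the anaphase-promoting complex, had log2 levels of 10.16, 10.35 and 10.32 in Dgcr8 KO cells and 10.29, 10.32 and 10.26 in Dicer KO cells, against 10.50, 10.59 and 10.63 in WT cells. Both mutants lay below WT and overlapped with each other. Its log2 ratio to WT was -0.30 ± 0.0616 in Dgcr8 KO (adjusted p = 0.00447) and -0.28 ± 0.0616 in Dicer KO cells (adjusted p = 0.0051). Ttk, the kinase that starts checkpoint signalling, had a log2 ratio of -0.22 in both mutants relative to WT (adjusted p = 0.0261 in Dgcr8 KO cells and 0.0223 in Dicer KO). These calls were lost without WT replicate 2 or 3, the first also without Dgcr8 KO replicate 1 or 3 (adjusted p = 0.0821 to 0.0923) and the second without Dicer KO replicate 2 or 3 (adjusted p = 0.0533 to 0.0812). The promoter window of Cdc20 (chr4:118437294-118437593, minus strand, GRCm38.p6) is shown as that of a mitosis gene that fell in both mutants. Its CHR motif, in capitals, lies between 2 CCAAT boxes, also in capitals.
Cdc20: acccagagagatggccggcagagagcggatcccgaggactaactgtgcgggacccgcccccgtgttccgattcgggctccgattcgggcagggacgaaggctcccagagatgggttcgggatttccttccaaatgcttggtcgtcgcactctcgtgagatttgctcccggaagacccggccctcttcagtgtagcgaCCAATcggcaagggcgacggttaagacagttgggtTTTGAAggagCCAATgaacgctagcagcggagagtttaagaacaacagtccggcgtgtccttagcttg

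No gene of chromosomes and spindle motors was higher in either mutant. Of 5 members, 3 were lower (Cenpe, Top2a and Birc5) in Dgcr8 KO than in WT cells and 2 (Cenpe and Top2a) in Dicer KO than in WT cells, and none was called between the mutants. The median log2 ratio was -0.184 in Dgcr8 KO cells and -0.106 in Dicer KO cells relative to WT. After repeated quantile normalization all 5 were lower in Dicer KO than in WT cells, and 2 (Cenpe and Kif11) were higher in Dgcr8 KO than in Dicer KO cells.

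Cenpe, the kinetochore motor that carries chromosomes to the spindle equator, had log2 levels of 8.86, 8.88 and 8.84 in Dgcr8 KO cells and 8.78, 8.84 and 8.78 in Dicer KO cells, against 9.01, 9.17 and 9.12 in WT cells. All mutant arrays lay below the lowest WT array. Its log2 ratio to WT was -0.24 ± 0.052 in Dgcr8 KO (adjusted p = 0.00559) and -0.30 ± 0.052 in Dicer KO cells (adjusted p = 0.00135). Birc5 (survivin), a subunit of the chromosomal passenger complex of Aurkb, had log2 levels of 8.69, 8.70 and 8.55 in Dgcr8 KO cells and 8.88, 8.80 and 8.79 in Dicer KO cells, against 8.79, 8.98 and 8.98 in WT cells. Dgcr8 KO arrays lay below those of WT, and Dicer KO arrays overlapped with them. Its call in Dgcr8 KO relative to WT (log2 ratio -0.27 ± 0.0679, adjusted p = 0.0133) was lost without WT replicate 2 or 3 or Dgcr8 KO replicate 3 (adjusted p = 0.0517 to 0.0521). Top2a, the topoisomerase that untangles chromosomes, had a log2 ratio of -0.18 in both mutants relative to WT (adjusted p = 0.0304 in Dgcr8 KO cells and 0.0333 in Dicer KO). These calls were lost without WT replicate 2 or 3, the first also without Dgcr8 KO replicate 1 or 3 (adjusted p = 0.0886 to 0.103) and the second without Dicer KO replicate 1 or 3 (adjusted p = 0.0922 to 0.103). The first was also lost after cyclic loess (adjusted p = 0.0642) and the second after centring each array on its median (adjusted p = 0.07). The 3 other clusters annotated to Top2a, all dimmer, had log2 ratios of -0.36, 0.09 and 0.03 in Dgcr8 KO relative to WT cells and of 0.05, 0.31 and 0.27 in Dicer KO relative to WT cells, none of them called, and 2 of the 3 also carry the symbol of another gene. The spindle motors Kif11 and Kif20a were called in no comparison.

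**Figure D5:**
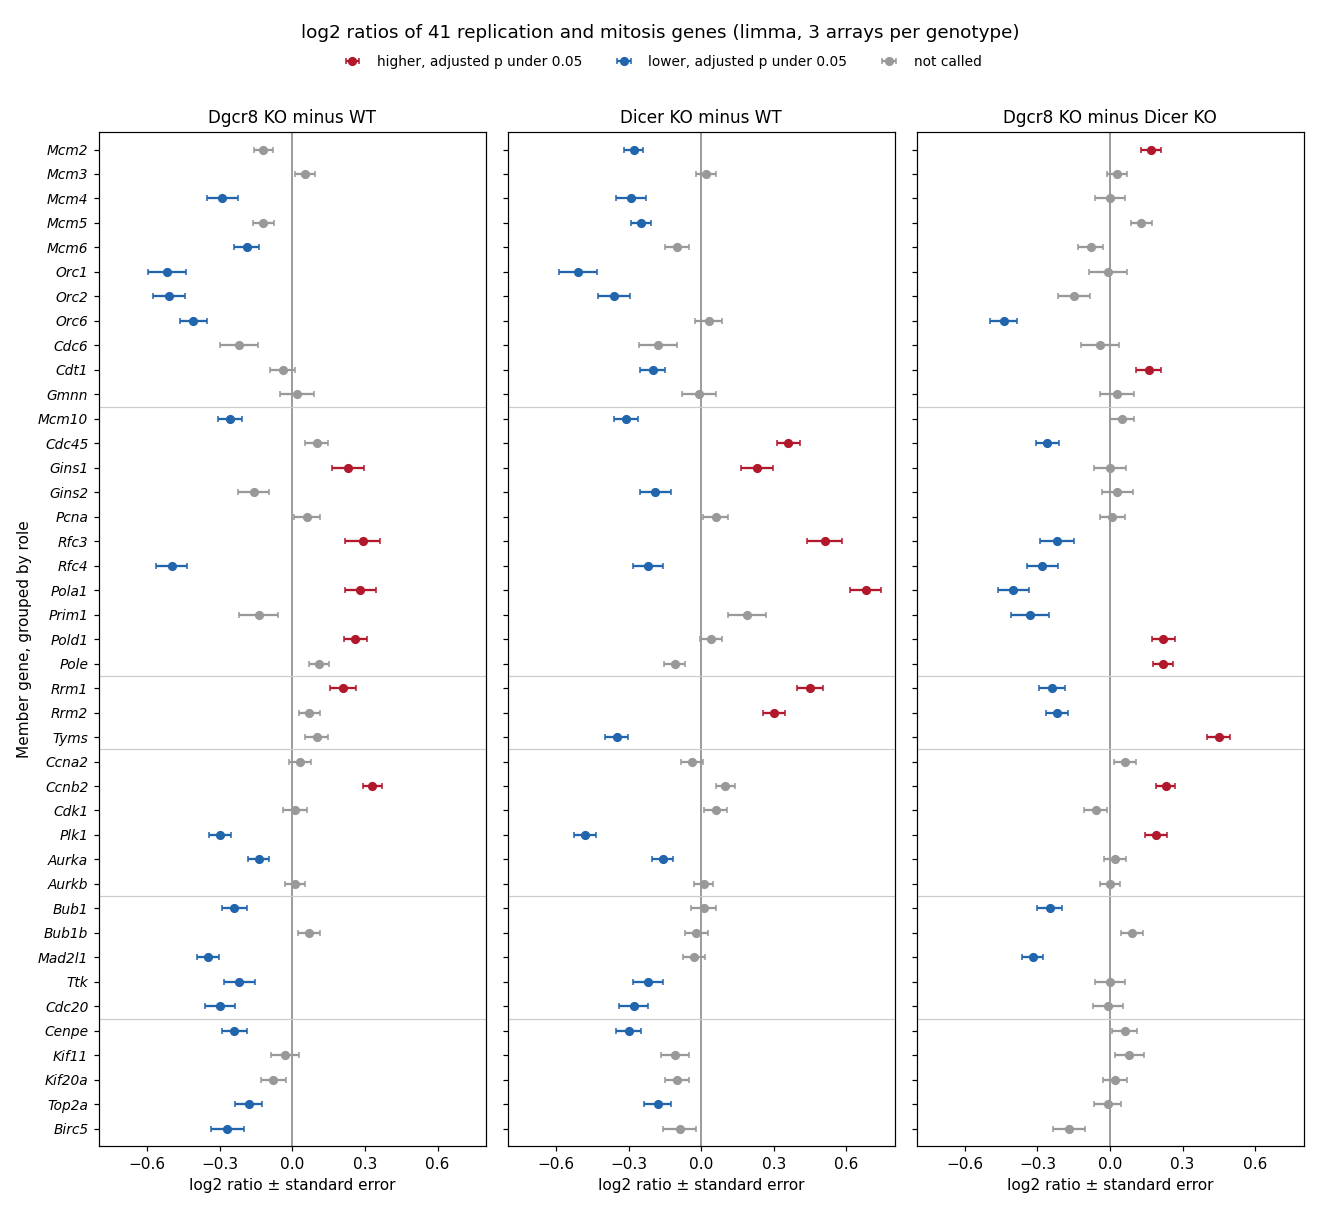
Log2 ratio with its standard error (limma, 3 arrays per genotype) for each member, grouped by role, for Dgcr8 KO over WT (left), Dicer KO over WT (middle) and Dgcr8 KO over Dicer KO (right). Red is higher and blue lower at an adjusted p under 0.05, and grey is not called. Ratios run between -0.52 (Orc1) and 0.33 (Ccnb2) in the first panel, -0.51 (Orc1) and 0.68 (Pola1) in the second, and -0.44 (Orc6) and 0.45 (Tyms) in the third.

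In all, 10 members were called in none of the 3 comparisons with the values as deposited: Mcm3, Cdc6, Gmnn, Pcna, Ccna2, Cdk1, Aurkb, Bub1b, Kif11 and Kif20a. Of the 22 members called in Dgcr8 KO relative to WT cells, 16 were called without each of the 9 arrays in turn, as were 15 of the 22 called in Dicer KO relative to WT and 12 of the 17 called between the mutants. SAM, the test named in the study's methods, called 1 member higher in Dgcr8 KO than in WT cells (Ccnb2). It called 5 lower there (Orc1, Orc2, Orc6, Rfc4 and Mad2l1). Over all 23002 transcripts it called 2595 higher and 2320 lower. In Dicer KO cells relative to WT it called 5 members higher and 9 lower, with 3502 and 3308 over all transcripts. Between the mutants it called 7 members higher and 11 lower in Dgcr8 KO cells, with 4350 and 3822 over all transcripts. The constant that SAM adds to each transcript's spread was 0.741, 0.469 and 0.162 in these comparisons, so its strictness differed between them.

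Among other genes of replication, more were lower than higher in each mutant relative to WT. Of 41 measured, 20 were lower and 4 higher in Dgcr8 KO than in WT cells, and 17 lower and 3 higher in Dicer KO than in WT cells, with median log2 ratios of -0.184 and -0.131. Relative to WT, 17.3% of all transcripts were lower and 15.7% higher in Dgcr8 KO cells. In Dicer KO cells 19.1% were lower and 17.8% higher. These shares stand beside the lists below as well. Under the 3 other scalings the lower replication genes numbered 18 to 24 in Dgcr8 KO cells and 17 to 23 in Dicer KO cells. Mcm8, a helicase subunit that also acts in recombination, had log2 levels of 8.02, 8.20 and 7.94 in Dgcr8 KO cells and 8.43, 8.44 and 8.36 in Dicer KO cells, against 8.78, 8.94 and 8.88 in WT cells (log2 ratios to WT -0.81, adjusted p = 2.54e-05, and -0.46, adjusted p = 0.000928). Dut, the dUTPase that keeps uracil out of DNA, had log2 levels of 8.63, 8.68 and 8.72 in Dgcr8 KO cells and 8.35, 8.36 and 8.36 in Dicer KO cells, against 9.15, 9.26 and 9.31 in WT cells (log2 ratios to WT -0.57, adjusted p = 2.72e-05, and -0.88, adjusted p = 1.18e-06). No genotypes overlapped in either gene. Pole4, an accessory subunit of the epsilon polymerase, rose most in Dgcr8 KO cells (log2 ratio 0.50, adjusted p = 0.000479), and Ticrr (treslin), which brings Cdc45 to origins, rose most in Dicer KO cells (0.42, adjusted p = 0.00047).

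Other genes of mitosis went both ways. Among all transcripts at least as bright as the dimmest member, 25.8% were higher and 30.8% lower in Dgcr8 KO cells relative to WT. The shares were 31.3% and 27.3% in Dicer KO cells. Of 56 mitosis genes measured, 15 were higher and 8 lower in Dgcr8 KO cells relative to WT. In Dicer KO cells relative to WT, 20 were higher and 12 lower. The median log2 ratios were 0.011 and 0.050. Scaling moved these counts to between 14 and 23 higher and 8 and 9 lower in Dgcr8 KO, and to between 19 and 21 higher and 6 and 21 lower in Dicer KO cells, and centring on array medians turned the median in Dgcr8 KO cells to -0.027. Zwint, a kinetochore protein, had log2 levels of 11.02, 11.02 and 11.12 in Dgcr8 KO cells and 11.14, 11.19 and 11.15 in Dicer KO cells, against 10.15, 10.30 and 10.26 in WT cells (log2 ratios to WT 0.81, adjusted p = 3.91e-06, and 0.92, adjusted p = 1.25e-06). Cdc25b, a phosphatase that activates cyclin-dependent kinases, had log2 levels of 8.79, 8.91 and 8.80 in Dgcr8 KO cells and 9.03, 8.98 and 9.04 in Dicer KO cells, against 7.97, 8.09 and 8.03 in WT cells (0.81, adjusted p = 3.16e-06, and 0.99, adjusted p = 6.3e-07). Mutant arrays lay above all WT arrays in both genes. Pttg1 (securin), the inhibitor of separase that Cdc20 marks for destruction, had log2 levels of 8.31, 8.23 and 8.20 in Dgcr8 KO cells and 7.68, 7.37 and 7.37 in Dicer KO cells, against 8.84, 8.80 and 8.68 in WT cells. It was 2.47-fold lower in Dicer KO than in WT cells (log2 ratio -1.31 ± 0.0872, adjusted p = 2.68e-06) and 1.44-fold lower in Dgcr8 KO than in WT cells (-0.53, adjusted p = 0.0011). Cenpa, the histone of the centromere, fell most in Dgcr8 KO cells (-0.58, adjusted p = 5.01e-05).

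Genes of the anaphase-promoting complex and its regulators numbered 15. Of these, 4 were higher and 6 lower in Dgcr8 KO cells relative to WT, and 3 higher and 5 lower in Dicer KO cells relative to WT. Fzr1 (Cdh1), the activator that takes over from Cdc20 at mitotic exit, rose most, by log2 ratios of 0.46 in Dgcr8 KO (adjusted p = 4.65e-05) and 0.26 in Dicer KO cells (adjusted p = 0.00179). Its log2 levels were 11.02, 10.95 and 10.93 in Dgcr8 KO cells and 10.79, 10.73 and 10.76 in Dicer KO cells, against 10.47, 10.51 and 10.53 in WT cells. Cdc26, a small subunit of the complex, fell most, by -0.73 in Dgcr8 KO (adjusted p = 6.3e-05) and -0.76 in Dicer KO cells (adjusted p = 4.11e-05).

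Several regulators of these genes changed by more than any member did. E2F factors act with their Tfdp partners, and the retinoblastoma protein Rb1 binds and restrains activating E2F factors. Its relatives Rbl1 and Rbl2 hold cell cycle promoters down together with the MuvB core (Lin genes and Rbbp4) in the DREAM complex. Of 20 such genes, 10 were higher and 5 lower in Dgcr8 KO cells relative to WT, and 6 higher and 6 lower in Dicer KO cells relative to WT, and over the 3 other scalings 7 to 10 were higher and 3 to 5 lower in Dgcr8 KO, and 5 to 7 higher and 6 lower in Dicer KO cells. Rbl2 (p130), the pocket protein of DREAM, had log2 levels of 8.17, 8.37 and 8.17 in Dgcr8 KO cells and 8.43, 8.35 and 8.44 in Dicer KO cells, against 6.93 to 7.04 in WT cells, and was 2.37-fold and 2.67-fold higher than in WT (adjusted p = 8.96e-07 and 2.61e-07). E2f8, an atypical E2F that represses its targets, had log2 levels of 8.34, 8.34 and 8.21 in Dgcr8 KO cells and 8.58, 8.57 and 8.58 in Dicer KO cells, against 9.32, 9.44 and 9.35 in WT cells, and was 2.11-fold and 1.73-fold lower than in WT (adjusted p = 6.8e-07 and 2.96e-06). Rb1 and Rbl1 were higher in both mutants as well, Rb1 by log2 ratios of 0.96 in Dgcr8 KO cells and 0.70 in Dicer KO cells and Rbl1 by 1.00 and 1.26, whereas E2f4 (-0.46 and -0.48) and Tfdp1 (-0.62 and -0.71) were lower. These 4 genes were named after their values were seen.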

How the data were processed

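Total RNA of 9 cultures was hybridised to 1-colour Affymetrix mouse gene arrays. The authors made the log2 values that were deposited: their methods name RMA and the processing notes name GCRMA, with no version, and both include quantile normalization across arrays. Averaging over probes and scaling of this kind can compress ratios, and how far they did so here was not measured. The precision is limited by 3 arrays per genotype. The paper speaks of biological replicates and the labels of plating in triplicate, so p-values may measure technical spread. Groups came from the sample titles.

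Clusters without a symbol (12147), with miRNA genes only (326), of chromosome Y (78) or of mitochondria (4) were left out. With several clusters, the brightest one with a single symbol represented the gene. In R 4.3.3, limma 3.58.1 (lmFit, a mean per genotype over 9 arrays, and eBayes) tested 3 contrasts, with Benjamini-Hochberg adjustment over 23002 clusters and calls at an adjusted p under 0.05. Array values were given in full for the called member of each role with the largest ratio in each direction and contrast, and for some others. Of the other lists of cell cycle genes and regulators, the called genes picked by this rule in each mutant against WT were named, some with array values. The marker lists were given mainly as counts and summed levels. Members and lists were chosen with earlier results of these data known. SAM was written anew from its description and run with all 20 label permutations per pair. Scripts were tested on simulated data. Promoter windows came from RefSeq of GRCm38.p6 and matched 34 of 42 members.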

Additional observations from a re-analysis of the deposited data

How the results depend on the processing

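In all, 22 other settings and 1 more chosen after seeing the data were run. SAM gave 1 member higher and 5 lower in Dgcr8 KO cells relative to WT, and 9 lower in Dicer KO than in WT cells. Between the mutants it gave 7 higher and 11 lower in Dgcr8 KO cells. After repeated quantile normalization 12 members were higher in Dgcr8 KO than in WT cells and 12 higher in Dgcr8 KO than in Dicer KO cells. Cyclic loess gave 13 higher in Dgcr8 KO than in WT cells, and centring on array medians gave 4 higher in Dgcr8 KO than in Dicer KO cells. A change of at least 1.5-fold left 0 higher and 0 lower in Dgcr8 KO cells relative to WT, 1 higher and 0 lower in Dicer KO than in WT cells, and 0 higher and 0 lower between the mutants. By limma at an adjusted p under 0.01, 3 were higher in Dgcr8 KO than in WT cells, 10 lower in Dicer KO than in WT cells, and between the mutants 4 higher and 6 lower in Dgcr8 KO cells. Leaving out 1 array at a time, 10 to 18 members were lower in Dicer KO than in WT cells and 4 to 8 higher in Dgcr8 KO than in Dicer KO cells, the lowest of each without Dicer KO replicate 3. With WT replicate 1 and Dgcr8 KO replicate 2 both left out, 4 were higher and 18 lower in Dgcr8 KO cells relative to WT, 5 higher and 19 lower in Dicer KO than in WT cells, and 6 higher and 12 lower between the mutants. With the replicate number as a block the counts were 6 higher and 15 lower, 7 and 15, and 6 and 9. Deviations of same-numbered arrays correlated at -0.2 to 0.344, with 5 of 9 pairs over 0.1 and not every array closest to its own number. Those of differently numbered arrays correlated at -0.465 to 0.317. Whether the numbers pair the samples was therefore not settled. Over the 24 named ratios, direction was kept in all alternatives run, and of the calls 512 were kept and 40 lost. These ratios were the largest called ones of their role and comparison, taken from these same data. Several settings, such as SAM and the stricter cutoffs, left every ratio unchanged. The kept direction is therefore no independent support. The causes were not tested. The array values carry no signal over background, so what dim signal limits could not be given.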
